A study of Homo sapiens with 12 samples.

Results

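SAMD9 and SAMD9L, a pair of related genes that lie next to each other on human chromosome 7, were followed through MDA-MB-231 cells given TNFα, apigenin, both or neither. They are 2 of the 20572 genes that passed a filter on low values, and each was read from 1 probe set of the array, 17059771 for SAMD9 and 17059776 for SAMD9L; both passed. The pair was picked by name, with earlier results on these arrays known, but the rule does not state which of them led to the choice. It was taken to rest on SAMD9 lower with TNFα and SAMD9L lower with apigenin than in untreated cells. What is said below on arrays that had served the choice rests on that reading. The values of both genes against the untreated cells are therefore given as a description with no test. The same holds for SAMD9 against TNFα alone and for SAMD9L against apigenin alone, whose arrays had served that choice. A p-value is given for SAMD9L between both agents and TNFα and for SAMD9 between both agents and apigenin, and these too were computed with earlier results of these arrays known. If the choice also used SAMD9L with TNFα or SAMD9 with apigenin, these p-values are not independent of it.

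Total RNA was hybridised to 12 Affymetrix whole-transcript arrays, 3 per group, after 24 h of treatment. The groups were TNFα at 40 ng/ml plus apigenin at 40 µM, apigenin alone at 40 µM, TNFα alone at 40 ng/ml, and untreated cells (control). MDA-MB-231 is an established cell line from a pleural effusion of a triple-negative breast cancer. TNFα is an inflammatory cytokine whose receptor switches on NF-κB, and apigenin is a flavone found in plants. Both agents were prepared in HBSS per the labels; the sources used here do not say whether HBSS was also added to the controls. Nor do the labels say that the 3 arrays of a group came from separate cultures, so every p-value reflects the spread of these samples alone, which could be technical.

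SAMD9 and SAMD9L encode large cytoplasmic proteins that start with a sterile alpha motif (SAM) domain and carry an NTPase-like core. Interferons induce both genes, and both proteins restrict poxvirus replication and can shut down protein synthesis. SAMD9 has been described as a nuclease that cuts a transfer RNA. Overactive germline variants of either gene slow cell growth and lead to bone marrow failure, often with loss of the chromosome 7 copy that carries them. None of this background was measured here.

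In the RefSeq annotation of GRCh38.p14, SAMD9 spans chr7:93099518-93117979 and SAMD9L spans chr7:93130056-93148385, both on the minus strand. The positions of the probes themselves are not used here, and whether a probe set of one gene also binds RNA of its relative was not tested. The 250 bases before each gene's start, from RefSeq on GRCh38.p14, are shown because interferons are known to act on both genes. They are chr7:93117980-93118229 for SAMD9 and chr7:93148386-93148635 for SAMD9L, both read on the minus strand. Capitals mark a run of 10 bases that both share and, in SAMD9, the core of a response element for interferon-activated factors, which it overlaps.
SAMD9: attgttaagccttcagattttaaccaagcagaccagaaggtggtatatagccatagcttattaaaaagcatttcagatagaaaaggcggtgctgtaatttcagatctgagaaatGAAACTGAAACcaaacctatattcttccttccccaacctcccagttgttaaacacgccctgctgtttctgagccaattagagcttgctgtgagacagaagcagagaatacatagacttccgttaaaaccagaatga
SAMD9L: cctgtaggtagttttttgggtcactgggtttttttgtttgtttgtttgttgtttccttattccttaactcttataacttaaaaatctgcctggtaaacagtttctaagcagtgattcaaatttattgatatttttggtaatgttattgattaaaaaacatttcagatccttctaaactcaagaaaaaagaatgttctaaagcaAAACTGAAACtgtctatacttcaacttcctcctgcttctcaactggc
Motifs were searched on both strands from 250 bases before to 50 bases after the start. The response element core GAAANNGAA was found once in SAMD9, at bases -136 to -128 from the start, and not in SAMD9L. The longest runs present in both printed sequences had 10 bases, and there were 3 of them. The one that overlaps the core in SAMD9, AAACTGAAAC, lay at -135 to -126 in SAMD9 and at -47 to -38 in SAMD9L. The other two were CATTTCAGAT and ATTTCAGATC. The core was in 8.11% of 35116 promoters of the same length, AAACTGAAAC in 55 of them (0.157%), CATTTCAGAT in 33 (0.0940%) and ATTTCAGATC in 22 (0.0626%). These runs were picked out after the sequences had been read. Neither promoter held the gamma-activated site TTCNNNGAA (7.66% of promoters), the NF-κB consensus (11.3%) or the TATA box letters TATAAA (11.5%). The AP-1 letters TGANTCA (7.71%) were found once in SAMD9L, at -139 to -133. A match is a description of the letters, not evidence of a bound site.

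The deposited values are log2 expression values, and a difference of 1 is a doubling. Array medians lay between 2.09 and 2.16 and the 25th percentiles between 1.60 and 1.65. Arrays correlated at r = 0.983 to 0.991 within groups and at 0.966 to 0.990 between groups, across genes. Of 10 listed NF-κB target genes 8 were measured, and all 8 rose with TNFα in the limma fit, beside 0.778% of all genes. CXCL8 rose the most, by 4.36 (SE 0.19, limma adjusted p = 4.7e-08). The mesenchymal markers AXL and VIM had group means of 9.96 to 10.08 and 8.02 to 8.27, and the hormone receptor genes ESR1 and PGR 1.99 to 2.14 and 1.49 to 1.62, near or below the array medians. Of the markers that were listed as low in this line, EPCAM (4.77 to 5.05) and GATA3 (3.87 to 4.43) read higher than that. Leukocyte and red-cell markers read 1.49 to 2.53 in group mean, except CD68 (9.63 to 9.74). None of the 9 measured was called in any of the 6 comparisons with limma, and 1 had an unadjusted p below 0.05 in a single comparison, apigenin against control. Over all genes 4638 of 20572 had such a p in that comparison.

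SAMD9 read 5.58, 5.67 and 5.87 with both agents, 5.56, 5.79 and 5.43 with apigenin, 6.07, 5.95 and 6.12 with TNFα, and 6.60, 6.64 and 6.75 in control (arrays 1, 2 and 3). Every treated array was below every control array. The order of the group means was control, TNFα, both agents and apigenin; the last pair overlapped and the other neighbours in this order did not. The means were 5.71 ± 0.15 with both, 5.60 ± 0.18 with apigenin, 6.05 ± 0.09 with TNFα and 6.66 ± 0.08 in control (log2, SD, n = 3 each).

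SAMD9L read 5.11, 4.96 and 5.14 with both agents, 4.14, 4.39 and 4.63 with apigenin, 5.41, 5.67 and 5.68 with TNFα, and 6.30, 6.02 and 6.50 in control. No 2 groups overlapped. The order of the means was the same as for SAMD9, with 5.07 ± 0.10 with both, 4.39 ± 0.25 with apigenin, 5.59 ± 0.16 with TNFα and 6.27 ± 0.24 in control (log2, SD, n = 3 each). The gap between neighbouring groups was 0.33 between TNFα and control, 0.27 between both agents and TNFα, and 0.33 between both agents and apigenin. In bulk RNA, fewer cells with a transcript and less of it per cell cannot be told apart.

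**Figure D1:**
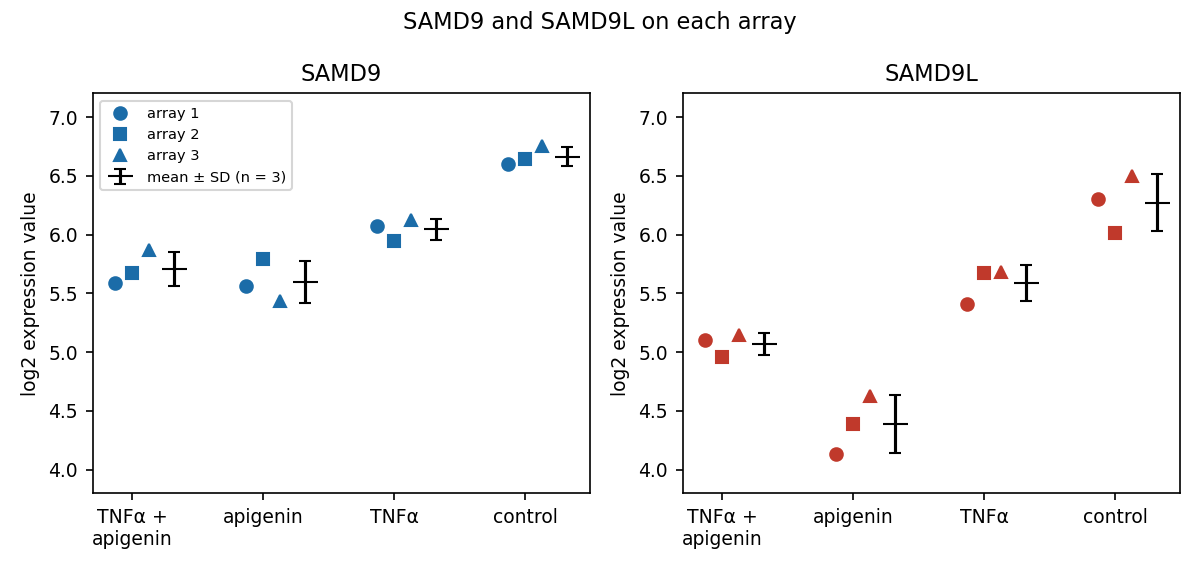
Log2 expression value of SAMD9 (left) and SAMD9L (right) on each array, by group, with the group mean ± SD beside the points; the marker shape gives the array number. All treated arrays lie below the 3 control arrays for both genes, and the apigenin arrays of SAMD9L, at 4.14 to 4.63, are the lowest.

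The array numbered 3 gave the highest SAMD9L value in all 4 groups, 0.07 to 0.24 above its group mean, and the highest SAMD9 value in 3 of 4 groups. With apigenin alone it gave the lowest SAMD9 value of the group. Without these 4 arrays SAMD9L differed by -1.89 between apigenin and control and by -0.62 between TNFα and control, and SAMD9 by -0.94 and -0.61.

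TNFα alone was set against control to see what the cytokine did by itself. SAMD9 was lower by 0.62 on the log2 scale in TNFα cells (log2 difference -0.62, SE 0.13, 1.53-fold lower), with a gap of 0.48 between the groups. SAMD9L was lower by a similar size (log2 difference -0.68, SE 0.16, 1.61-fold lower). The groups did not overlap, in the lower direction, for both genes, as for 5.22% of all genes, and this comparison is one the choice of the pair had used. TNFα called 205 genes with limma, 0.997% of those tested, 0.219% lower and 0.778% higher. In absolute size the difference exceeded that of 97.8% of genes for SAMD9 and 98.5% for SAMD9L. Within arrays, SAMD9 minus SAMD9L was 0.46 ± 0.19 with TNFα and 0.39 ± 0.21 in control (log2, SD, n = 3 each), a change of 0.07 (SE 0.16).

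Apigenin alone gave the lowest values of both genes. SAMD9 was 2.10-fold lower with apigenin than in control (log2 difference -1.07, SE 0.13), and SAMD9L 3.70-fold lower (-1.89, SE 0.16). The gap between the groups was 0.80 for SAMD9 and 1.39 for SAMD9L. Groups that do not overlap, lower with apigenin, were found for 14.5% of genes. In absolute size the SAMD9L difference exceeded that of 99.9% of genes and the SAMD9 difference that of 98.3%. The choice of the pair had used this comparison, so these places among all genes are a description only. Apigenin called 11.4% of genes, 6.83% lower and 4.55% higher; without control replicate 3 the balance turned, with 982 higher and 897 lower. The within-array difference SAMD9 minus SAMD9L was 1.21 ± 0.35 with apigenin and 0.39 ± 0.21 in control, a change of 0.82 (SE 0.24), given with no test.

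**Figure D2:**
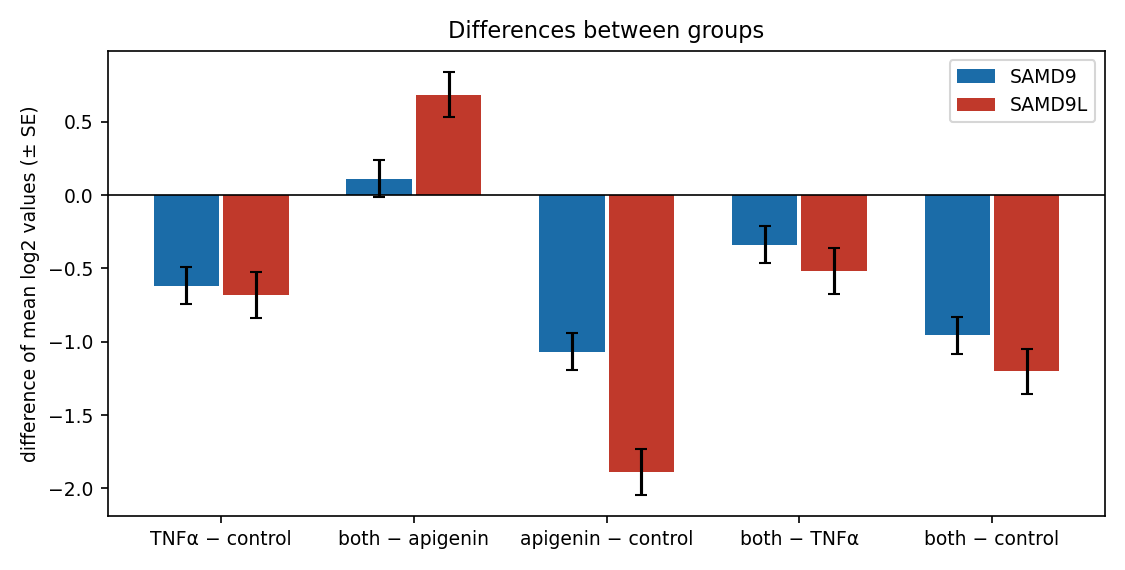
Difference of group means on the log2 scale for SAMD9 (blue) and SAMD9L (red) in 5 comparisons, with the SE of the limma fit as error bars. Both genes are below 0 in every comparison but TNFα plus apigenin minus apigenin, where SAMD9L is at 0.68 and SAMD9 at 0.11.

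Apigenin was next examined in cells that also received TNFα. SAMD9L read 4.96 to 5.14 with both agents and 5.41 to 5.68 with TNFα alone, and fell by 0.52 on the log2 scale (log2 difference -0.52, SE 0.16, 95% interval -0.85 to -0.18, limma adjusted p = 0.0499). The adjusted p stood at the threshold of 0.05. The call was lost when any 1 of the 6 arrays was left out, with differences of -0.61 to -0.46 and adjusted p from 0.0584 to 0.161. SAMD9 read 5.58 to 5.87 with both and 5.95 to 6.12 with TNFα, a difference of -0.34 (SE 0.13), given with no test because the TNFα arrays had served to choose the gene. The groups did not overlap for either gene, as for 14.6% of all genes in the lower direction, and 10.1% of genes were called, 5.92% lower and 4.21% higher; without TNFα replicate 3 the balance turned here too, with 780 higher and 749 lower. SAMD9 minus SAMD9L was 0.64 ± 0.14 with both and 0.46 ± 0.19 with TNFα (change 0.18, SE 0.14, no test).

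TNFα was then examined in cells that also received apigenin, where SAMD9L was higher and SAMD9 overlapped. All 3 SAMD9L arrays with both agents were above the 3 with apigenin alone, by a gap of 0.33, a difference of 0.68 (SE 0.16, 1.61-fold). It is given with no test, because the low SAMD9L values on the apigenin arrays had served to choose the gene. SAMD9 read 5.58 to 5.87 with both agents and 5.43 to 5.79 with apigenin alone, and the groups overlapped (difference 0.11, SE 0.13, 95% interval -0.16 to 0.38, limma adjusted p = 0.917). Without the 4 arrays numbered 3 the SAMD9 difference was -0.05, of the other sign. In this comparison 43 genes (0.209%) were called, 43 higher and 0 lower (1489 at an unadjusted p below 0.05 with limma), and 10.4% had groups that do not overlap in the higher direction. SAMD9 minus SAMD9L was 0.64 ± 0.14 with both and 1.21 ± 0.35 with apigenin, a change of -0.57 (SE 0.22, no test).

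Cells given both agents were below control for both genes. The log2 difference against control was -0.96 (SE 0.13, 1.94-fold lower) for SAMD9 and -1.20 (SE 0.16, 2.30-fold lower) for SAMD9L, and groups that do not overlap in the lower direction were found for 12.9% of genes. Over all genes 12.5% were called, 5.37% lower and 7.15% higher. The interaction, which is the TNFα difference with apigenin minus the TNFα difference without it, was 0.73 (SE 0.18) for SAMD9 and 1.37 (SE 0.22) for SAMD9L. In absolute size these exceeded the interaction of 99.1% and 99.9% of genes. They share the control, TNFα and apigenin arrays with the comparisons that the choice of the pair had used. Their places among all genes are therefore a description only, given with no test. For the interaction 11 genes (0.0535%) were called with limma. Without the 4 arrays numbered 3 the interaction was 0.56 (SE 0.20) for SAMD9 and 1.39 (SE 0.24) for SAMD9L.

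**Figure D3:**
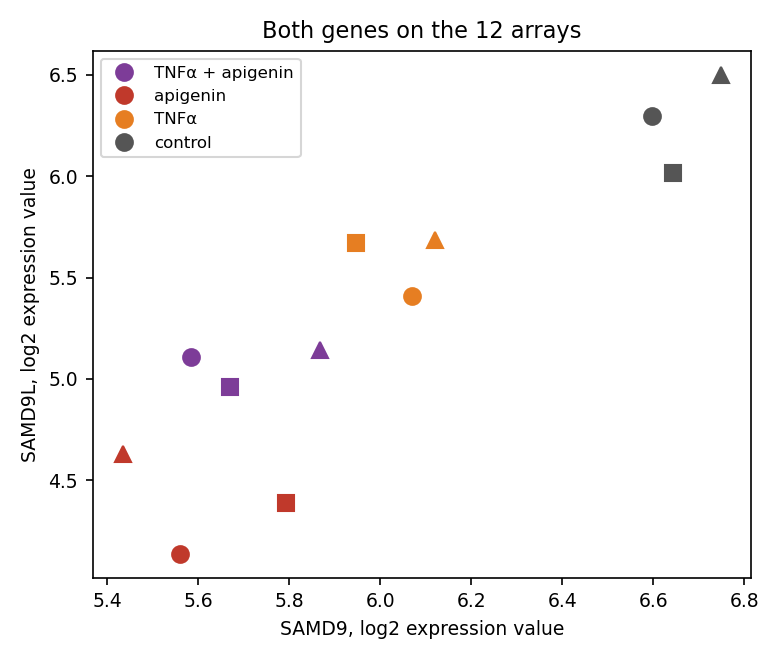
SAMD9L against SAMD9 on the log2 scale on the 12 arrays, coloured by group; circles, squares and triangles are the arrays numbered 1, 2 and 3. The 3 control arrays lie at the upper right, and among the apigenin arrays the order of the points differs between the genes.

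Across the 12 arrays the values of the 2 genes correlated at r = 0.898, with the 4 groups and the arrays in common. Of 17723 ranked genes, SAMD9L was in place 78 by likeness to SAMD9, and SAMD9 in place 139 by likeness to SAMD9L. After each group's mean was subtracted, r between them was -0.0077 over the same arrays. The 5 genes most like SAMD9 over the 12 arrays were SMC2, a condensin subunit (r = 0.973), CKAP2, a spindle-associated protein (0.967), the adhesion receptor ADGRL2 (0.960), the polarity protein PARD6B (0.957) and SHISA3 (0.949). The 5 most like SAMD9L were the phospholipid transporter ATP10D (0.961), RICTOR of mTOR complex 2 (0.957), the centrosomal protein CEP350 (0.956), ERBIN (0.953) and the centriole protein SASS6 (0.949). No gene was in both sets. ATP10D differed by -1.34 between apigenin and control and by 0.42 between both agents and apigenin, and ADGRL2 by -1.12 and -0.04. The 12 arrays hold 4 treatment groups, so these correlations hold the differences between groups as well as the spread within them.

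The pair belongs to the genes that interferons induce, and 48 other such genes were measured of 50 listed. With apigenin alone 11 of the 48 fell and 1 rose (22.9% lower, against 6.83% of all genes), with a median log2 difference of -0.24 beside -0.02 over all genes. RIGI, a sensor of viral RNA, fell by 1.42 (SE 0.11, limma adjusted p = 5.2e-06), and IFIT3, which binds viral RNA with its relatives, fell by 1.40 (SE 0.18, limma adjusted p = 2.8e-04). PARP14, an ADP-ribosyltransferase (-1.24), and the helicase-like DDX60 (-1.06) fell too, while IFI6, an antiviral membrane protein, rose by 0.71. ISG15, MX1 and OAS1 differed by -0.23, -0.15 and -0.09 and did not pass. In control they read 5.28, 2.76 and 2.44, beside array medians of 2.09 to 2.16. The lowest of the 48 read 1.78 in control, and genes this low had little room to fall. The SAMD9L difference of -1.89 was below the lowest of the 48, which was -1.42, and the SAMD9 difference of -1.07 was within their range. The choice of the pair had used this comparison and the 48 were not chosen that way, so this is a description only.

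With TNFα alone none of the 48 was called with limma, beside 0.997% of all genes, so few calls could be looked for among 48. Of the 48, 12 had an unadjusted p below 0.05 in that fit, beside 2387 of 20572 genes. The differences ran from -0.65 to 0.67 with a median of 0.03 beside 0.02 over all genes. Replicate number as a block called 2. The lowest was IFIT1 (-0.65), an interferon-induced protein that binds viral RNA, and RIGI differed by 0.20. SAMD9L, at -0.68, was below this range and SAMD9, at -0.62, within it, in a comparison that the choice of the pair had used. Both agents against TNFα gave 9 lower and 3 higher of 48 (18.8% lower, against 5.92%), with IFIT3 at -1.03, RIGI at -0.96, the RNA sensor IFIH1 at -0.91 and PARP12 at -0.78. IFI6 (0.77), the ubiquitin ligase DTX3L (0.53) and IFIT5 (0.52) were the 3 that rose. Between both agents and apigenin 2 of 48 rose and none fell (4.17% higher, beside 0.209% of all genes higher and 0% lower). The 2 were DTX3L (0.75, SE 0.13, limma adjusted p = 0.0390) and RIGI (0.66, SE 0.11, limma adjusted p = 0.0269). RIGI read 6.98 ± 0.05 with both, 6.32 ± 0.07 with apigenin, 7.95 ± 0.08 with TNFα and 7.75 ± 0.13 in control (log2, SD, n = 3 each). The 2 calls were lost in fits that left out apigenin replicate 1 or 2 or any replicate of the combined group, where none was called. For both agents against TNFα the count of 12 became 6 or 7 when TNFα replicate 1 or 3 was left out, and 5 or 7 when replicate 1 or 2 of the combined group was. Both agents against control gave 7 lower and 3 higher of 48 (14.6% and 6.25%, beside 5.37% and 7.15% of all genes), with IFIT1 at -1.35 and IFIT3 at -1.32.

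**Figure D4:**
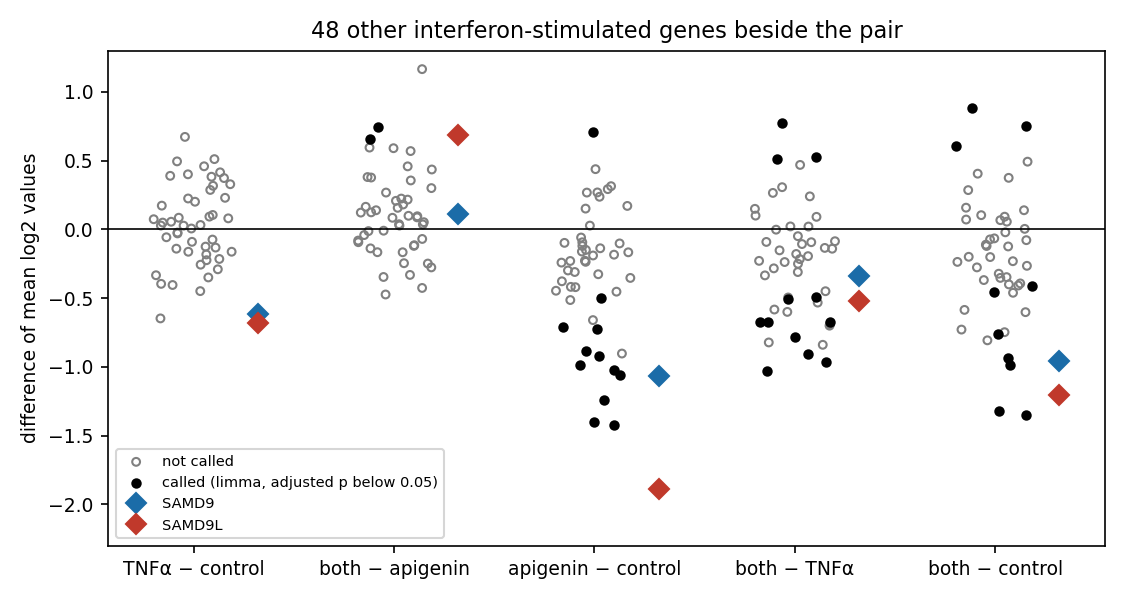
Difference of group means on the log2 scale for the 48 other interferon-stimulated genes (circles, filled where called by limma) with SAMD9 and SAMD9L as diamonds, in 5 comparisons. SAMD9L lies below all 48 for apigenin minus control, at -1.89, and for TNFα minus control, at -0.68. The choice of the pair, but not of the 48, had used these comparisons.

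Upstream of such genes, 2 of 17 measured interferon receptor and signalling genes fell with apigenin: the receptor chain IFNAR1 (-0.71, SE 0.14, limma adjusted p = 0.0045) and IRF9 (-0.56, SE 0.13, limma adjusted p = 0.0140), the DNA-binding part of the interferon-activated complex (11.8% lower, beside 6.83% of all genes). None of the 17 was called with TNFα alone in the limma fit, beside 0.997% of all genes. Of the 17, 3 had an unadjusted p below 0.05 in that fit, beside 2387 of 20572 genes. None was called for both agents against TNFα or against apigenin either, beside 10.1% and 0.209% of all genes. In these comparisons 4 and 6 of the 17 had an unadjusted p below 0.05 with limma, beside 4476 and 1489 of 20572 genes. IRF1 differed by -0.24 with apigenin and 0.14 with TNFα. Of 10 interferon genes only 4 passed the filter on low values (IFNB1, IFNL1, IFNL2 and IFNL3). Their group means were 1.62 to 2.37, low on this scale, and none was called with limma or had an unadjusted p below 0.05 in any of the 6 comparisons. IFNB1 read 1.90 with both agents, 1.71 with apigenin, 1.76 with TNFα and 1.83 in control (mean log2 values).

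The promoter letters were also counted in other genes. For the interferon list, 42 genes had a promoter of this length, and a gene was counted once if any of its promoters matched. The core GAAANNGAA was found for 31 of the 42 genes (73.8%). The run AAACTGAAAC was found for 9 of 42 (21.4%), among them IFIT3, DDX60 and DTX3L. The shares over 35116 promoters given earlier count promoters and not genes. The other two runs were in none of the 42. Of 1301 measured genes with the core outside the pair, 138 fell and 77 rose with apigenin (10.6% and 5.92%, beside 6.83% and 4.55% of all genes). Of 30 measured genes with AAACTGAAAC, 6 fell and 1 rose with apigenin (20% and 3.33%, beside 6.83% and 4.55%). With both agents against TNFα 3 of the 30 fell and 4 rose (10% and 13.3%, beside 5.92% and 4.21% of all genes). The 30 hold genes of the interferon list, such as IFIT3 and DDX60, so these counts are not separate from those of the list. The median difference of the 30 was -0.12 with apigenin and -0.03 with TNFα. These counts carry no test.

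A list of other proteins that block translation or cut RNA in infected cells was set beside the pair. Of 12 measured, 8 had a difference below 0 with apigenin, but SLFN5 was the only one called with apigenin (8.33% higher, beside 4.55% of all genes), and it rose by 2.40 (SE 0.15, limma adjusted p = 1.1e-06). SLFN5, of the Schlafen family, read 7.81 ± 0.01 with both, 7.34 ± 0.06 with apigenin, 5.62 ± 0.11 with TNFα and 4.95 ± 0.34 in control (log2, SD, n = 3 each). Its relatives SLFN12 and SLFN13 differed by -0.22 and -0.09 with apigenin, and EIF2AK2, the RNA-activated kinase that halts translation, by -0.19; none passed. The core of the pair has been likened to the STAND class of NTPases, of which 10 genes were measured. All 10 had a difference below 0 with apigenin (median -0.23), and 3 had an unadjusted p below 0.05 with limma, beside 4638 of 20572 genes. None of the 10 was called, beside 11.4% of all genes. NLRP3, the inflammasome sensor, rose by 0.97 with TNFα and fell by 0.91 with both agents against TNFα.

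Of 13 other genes named for a SAM domain, which need not be related to the pair elsewhere in the protein, 1 fell and 1 rose with apigenin (7.69% each, beside 6.83% and 4.55% of all genes). SAMD12 fell by 1.07 (SE 0.14, limma adjusted p = 3.1e-04) and SAMD8, a sphingolipid enzyme, rose by 0.54. With TNFα alone SAMD5 rose by 0.69 and none fell (7.69% higher, beside 0.778% of all genes). Of 12 genes of the early endosome, with which SAMD9L has been linked, RAB5B (-0.53) and RABEP1 (-0.49) fell and STAM (0.55) rose with apigenin (16.7% and 8.33%, beside 6.83% and 4.55%). EEA1, a tether of early endosomes, differed by -0.15 and did not pass. RGL2, described as a partner of SAMD9, differed by -0.32 with apigenin and did not pass.

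Along the chromosome, 7 named protein-coding genes near the pair were examined, 3 on the SAMD9 side and 4 on the SAMD9L side. CDK6, the cell-cycle kinase next to SAMD9, read 6.39 ± 0.10 with both, 5.53 ± 0.15 with apigenin, 6.77 ± 0.16 with TNFα and 6.14 ± 0.29 in control (log2, SD, n = 3 each). It fell by 0.61 with apigenin (SE 0.15, limma adjusted p = 0.0180), and differed by 0.63 with TNFα, which did not pass (limma adjusted p = 0.0726). It rose by 0.86 with both agents against apigenin (SE 0.15, limma adjusted p = 0.0358). HEPACAM2, next to SAMD9L, read 1.50 to 1.69 in group mean, near the lower end of the scale, and was not called in any of the 6 comparisons with limma. VPS50, an endosomal tether subunit, differed by -0.60 with apigenin and did not pass (limma adjusted p = 0.0572).

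CALCR, the calcitonin receptor gene beyond VPS50, fell by 1.23 with apigenin (SE 0.15, limma adjusted p = 2.1e-04) and by 0.92 with TNFα (SE 0.15, limma adjusted p = 0.0093). Its values were low, 1.99 ± 0.14 with both, 2.06 ± 0.24 with apigenin, 2.37 ± 0.19 with TNFα and 3.29 ± 0.19 in control (log2, SD, n = 3 each). RBM48 rose by 0.77 with apigenin (limma adjusted p = 0.0151), and FAM133B and TFPI2, at -0.09 and 0.21, did not pass. The neighbours thus went both ways with apigenin.

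**Figure D5:**
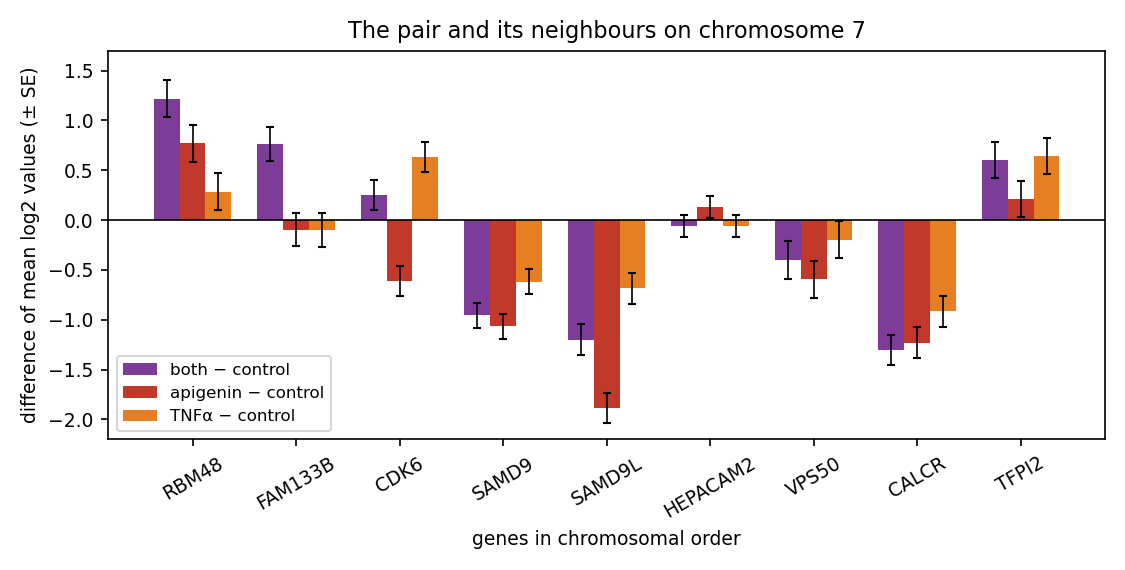
Difference of group means on the log2 scale, with SE, for SAMD9, SAMD9L and 7 neighbouring genes in chromosomal order, for each treatment minus control. SAMD9 and SAMD9L are below 0 with all 3 treatments, as CALCR and VPS50 are, while RBM48 and TFPI2 are above 0 and CDK6 is below 0 with apigenin alone.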

How the data were processed

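Total RNA of 12 samples in 4 groups of 3 was measured on 1-colour Affymetrix arrays. The authors deposited log2 expression values, 1 for each probe set. Expression Console is the tool that the submitters' processing notes name, without version, summary method or settings. Of 53617 probe sets, 23871 had exactly 1 gene symbol in the platform's table, 1842 several and 27904 none; symbols were updated through the gene identifier, which changed 90. Probe sets below the 25th percentile of the array on more than 9 arrays were dropped, which left 20572 genes, and the probe set with the highest mean was used where a gene had several. A model of 4 group means was fitted in R 4.3.3 with lmFit, contrasts.fit and eBayes of limma 3.58.1, with 8 residual degrees of freedom and Benjamini-Hochberg adjustment over all genes; adjusted p below 0.05 was called. SE and intervals are those of this fit, except for SAMD9 minus SAMD9L, which uses the spread of the groups compared. Permutation tests planned for it are not given, since its arrays had served to choose the pair. The number of arrays limits the precision. The fit was tested on simulated data. Promoter letters come from RefSeq on GRCh38.p14.

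The members and lists were chosen with earlier results of these data known. Named genes are the pair, all measured genes of short lists, up to 4 called genes in each direction of longer ones plus 10 fixed names, up to 4 of the nearest genes on each side, and the 5 most correlated genes. Normalisation, filters, probe set choice, samples in the fit, variance prior, replicate block and left-out arrays were varied.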

Additional observations from a re-analysis of the deposited data

Results flagged for a closer look

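For SAMD9L the difference with TNFα had opposite signs with and without apigenin: the difference was 0.68 between both agents and apigenin and -0.68 between TNFα and control, with no overlap of arrays in either, and the change of direction was not tested, since the control and apigenin arrays had served to choose the gene.

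All measured genes of the lists were looked through for differences with apigenin of opposite signs with and without TNFα. In 3 of them this was seen with no overlap of arrays, and its share over all genes was not counted. EEA1 differed by 0.16 between both agents and TNFα and by -0.15 between apigenin and control (limma adjusted p = 0.437 and 0.469, neither passed), ICAM1 by -0.48 and 0.52, and CXCL8 by -1.21 and 0.88. The interaction was 0.30 for EEA1 and -0.996 for ICAM1, and neither passed over all genes (limma adjusted p = 0.999 and 0.174). For CXCL8 it was -2.09 and passed (limma adjusted p = 0.0218).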

How the results depend on the processing

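Each SAMD9 and SAMD9L difference was refitted under 7 or 8 alternatives and with each array left out, 178 fits in all. In 166 of them the direction and the side of the threshold, or the value within 1 SD, were as reported. This count scored SAMD9L between both agents and apigenin, and SAMD9 between both agents and TNFα, by the side of the threshold too. As these are given with no test, the count is a description for them and no support. SAMD9L between both agents and TNFα lost its call with no filter on low values and with a trended, robust prior (both -0.52, limma adjusted p = 0.0516 and 0.0513) and without the 4 arrays numbered 3 (-0.51, adjusted p = 0.124), and differed by -0.61 to -0.46 with single arrays left out; fewer arrays are the construction of those fits. SAMD9 between both agents and apigenin was -0.05 without the arrays numbered 3, and its interaction 0.56. On array 3 SAMD9 deviated from its group mean by 0.16 with both agents and by -0.16 with apigenin. Why these arrays deviate was not tested.

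Of the interferon-stimulated genes, quantile normalisation called 1 with TNFα against control, 20 with both agents against TNFα and 17 with both agents against control, where the reported counts were none, 12 and 10. A fit of only the groups compared, and one without the arrays numbered 3, called 0 of them between both agents and apigenin, against 2. In the full limma fit 13 of them had an unadjusted p below 0.05, beside 1489 of 20572 genes. Without the arrays numbered 3 the count for both agents against TNFα was 6. With single arrays left out the counts ran from 0 to 1 for TNFα against control, 0 to 2 for both against apigenin and 5 to 13 for both against TNFα.

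Arrays with the same number deviated together at r = 0.0182 to 0.464 across genes, 13 of 18 pairs above 0.1. All 12 arrays correlated best with their own number, so arrays of a number have something in common. The labels do not say what the numbers stand for, and what these arrays share was not tested. The main fit left the number out, and a fit with it as a block is given beside it. With the replicate number as a block, SAMD9L between both agents and apigenin differed by 0.68 (SE 0.13 with the block and 0.16 without, no test), and the interferon counts were 2, 21, 5 and 17 for TNFα against control, both against TNFα, both against apigenin and both against control. The block changed neither of the 2 calls that are given for the pair. For SAMD9L between both agents and apigenin only the difference and SE are given, because the apigenin arrays had served to choose the gene.

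Over all genes, the 205 calls of TNFα against control were 73 in a fit of only those groups, 632 with the block, 85 without the arrays numbered 3, and 98 without control replicate 1 to 314 without TNFα replicate 2. The 2342 of apigenin against control were 1505 without the arrays numbered 3 and 1534 without apigenin replicate 1. The 2085 of both against TNFα were 3315 with the block, 1288 without the arrays numbered 3 and 1191 without replicate 1 of the combined group. The 43 of both against apigenin were 21 in a fit of only those groups, 100 with the block, 15 without the arrays numbered 3, and 15 to 31 with single arrays left out, and the 11 of the interaction were 3 with the trended prior and 2 to 6 with single arrays left out. Quantile normalisation moved the share of higher calls to 59.5%, against 78.0%, for TNFα against control and to 38.8%, against 57.1%, for both against control.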
